A study of Mus musculus with 10 samples.

Results

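Neutrophil and inflammatory monocyte genes were followed in MB-49 tumors through 10 genes, chosen by symbol: S100a8, S100a9, Retnlg, Mmp8, Mmp9, Csf3r, Cxcr2, Cxcl2, Il1b and Ly6c2. All 10 were found among the 24202 genes of the table, and all 10 averaged at least 10 normalized counts, the filter that 16767 genes passed. MB-49 is a mouse bladder cancer cell line. In every group 100000 of its cells were injected under the skin, on the right flank, of hLrrc32 knock-in mice, which carry the human LRRC32 gene, so the control mice carry it too. LRRC32 encodes GARP, a surface protein that holds latent TGF-beta. The treated group (5 tumors) received PIIO-1, a GARP antibody that the sample titles call a4D3, given into the peritoneum on days 6 and 9, with 200 ug for each mouse. The control group (5 tumors) received PBS. All tumors were taken on day 10 and made into cell suspensions, and their total RNA was sequenced in bulk. The labels give no age, sex or number of mice and do not say that each tumor came from a different mouse, so p-values measure the spread between these samples. In such bulk samples, fewer cells of a type and less RNA per cell cannot be told apart.

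Neutrophils are short-lived granulocytes that the bone marrow releases under G-CSF, which acts through the receptor encoded by Csf3r. They follow chemokines such as CXCL2 through the receptor CXCR2 and carry proteases and antimicrobial proteins in granules. Inflammatory monocytes, marked in mice by high surface Ly6C, leave the marrow through CCR2. Both cell types make S100A8 and S100A9, which pair into calprotectin, and IL-1 beta, and both are known to gather in tumors, where they can restrain T cells or feed inflammation.

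Reads in genes numbered 18843192 in the shallowest library (PBS tumor 4) and 37581521 in the deepest (PBS tumor 3), and mitochondrial genes took 0.986% to 3.12% of them, with the largest share in PIIO-1 tumor 5. Levels below are normalized read counts (SD, n = 5 tumors per group). Differences are PIIO-1 minus PBS on the log2(normalized count + 1) scale, with the standard error (SE) from limma. At an adjusted p under 0.05 limma called 0 of the 16767 genes (0%) and 0 of the 10 members. At an unadjusted p under 0.05 it counted 944 genes (5.63%; 2.86% higher and 2.77% lower with PIIO-1) and 1 member, Mmp8, which was higher. edgeR called 0 genes (0%) and DESeq2 3 (0.0179%), none of them a member, and at an unadjusted p under 0.05 edgeR counted 975 genes (5.81%) with 0 members and DESeq2 1012 (6.04%) with 1 member.

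All 10 genes had a higher mean in PIIO-1 tumors. The fitted log2 differences amounted to 1.09-fold (Mmp9) to 1.69-fold (Retnlg). None of the 10 genes passed the test over all genes. Their median difference was 0.36, against 0.0027 over all genes tested, of which 51.1% had a difference above 0. For every member the groups overlapped; over all genes tested 0.394% lay wholly higher and 0.459% wholly lower in PIIO-1 tumors. The members were measured in the same tumors, so the 10 signs are not 10 separate observations. Red blood cell genes had a median difference of 1.41, and with their level as a covariate the members' median was -0.21, with 3 of 10 members above 0. Leaving out PIIO-1 tumor 5 gave a members' median of 0.15, leaving out PBS tumor 4 0.23, and with both left out it was 0.051, with 6 of 10 members above 0. These tumors held the highest and the lowest mean standardized level of the members, so a smaller difference follows from leaving them out.

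**Figure D1:**
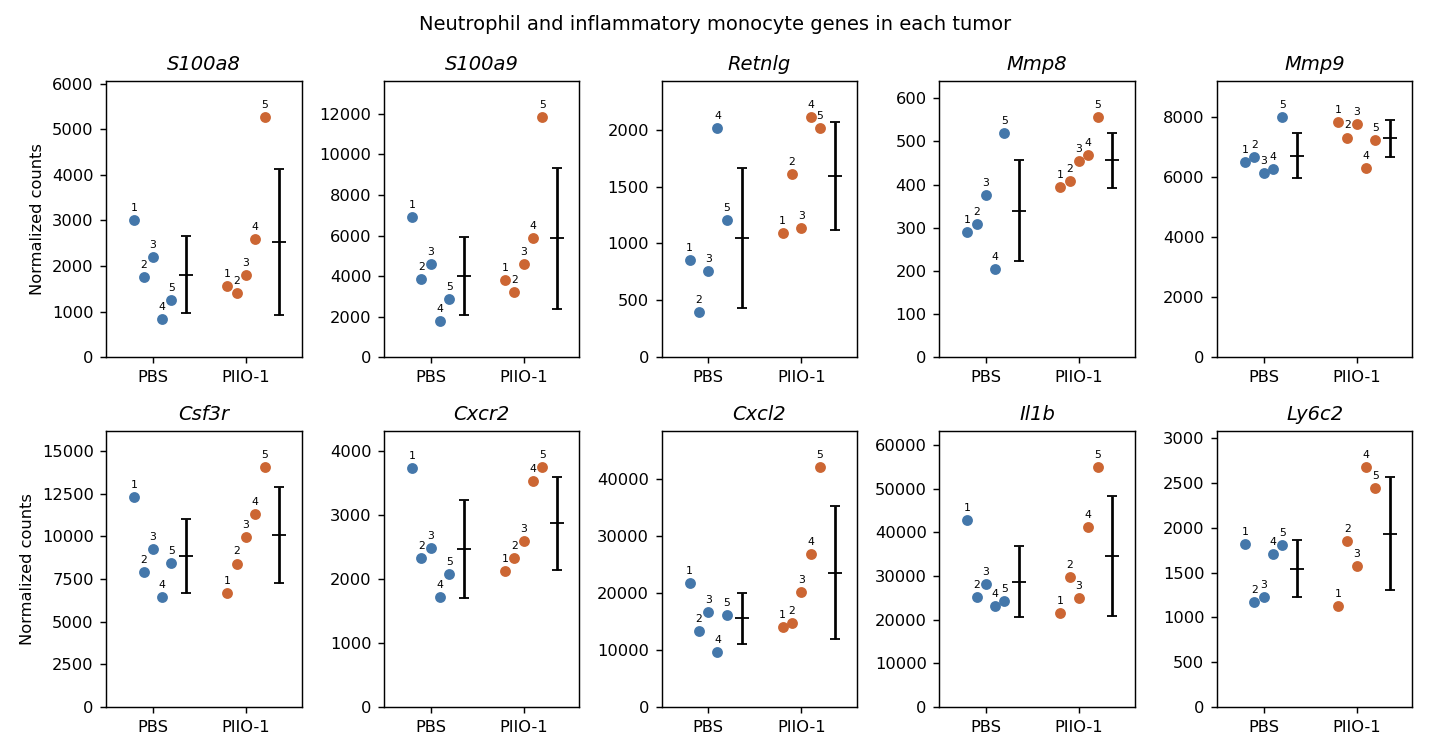
Normalized counts (vertical axes, linear, each starting at 0) of the 10 genes in 5 PBS and 5 PIIO-1 tumors; the small digit is the tumor number, the bar the group mean and its whiskers the SD. The groups overlap in every panel, and PIIO-1 tumor 5 is the highest point for 7 of the 10 genes, reaching 5264 for S100a8.

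The alarmin genes S100a8 and S100a9 encode the calcium-binding subunits of calprotectin, which neutrophils and monocytes hold in bulk in the cytosol. S100a8 lies at chromosome 3, 90668978 to 90670035 (plus strand), and S100a9 at chromosome 3, 90692632 to 90695721 (minus strand), 22596 bases apart in build GRCm38. S100a8 stood at 3004, 1760.4, 2190.1, 829 and 1252 in PBS tumors 1 to 5 and 1559, 1407, 1801, 2586 and 5264 in PIIO-1 tumors 1 to 5. Its lowest value was in PBS tumor 4 and its highest in PIIO-1 tumor 5, and only that treated tumor lay above the highest PBS value. The means were 1807 ± 844 with PBS against 2524 ± 1598 with PIIO-1, a difference of 0.43 (SE 0.39) with a 95% interval from -0.43 to 1.29 (limma, adjusted p = 0.88).

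S100a9 stood at 6892, 3833, 4587, 1798 and 2865 in PBS tumors 1 to 5 and 3807, 3234, 4571, 5859 and 11839 in PIIO-1 tumors 1 to 5. It ranked the 10 tumors in the same order as S100a8, from PBS tumor 4 up to PIIO-1 tumor 5. Its means were 3995 ± 1928 with PBS against 5862 ± 3483 with PIIO-1, a difference of 0.53 (SE 0.39), interval -0.31 to 1.37 (limma, adjusted p = 0.861). The S100a8 to S100a9 ratio was 0.436 to 0.477 in PBS and 0.394 to 0.445 in PIIO-1 tumors, while within the PBS group alone S100a8 spanned 3.63-fold and S100a9 3.83-fold. The SD of that log2 ratio over 10 tumors, 0.081, was the smallest of the 45 member pairs (median 0.44). Omitting 1 tumor at a time gave differences from 0.12 (PIIO-1 tumor 5 left out) to 0.65 (PBS tumor 1 left out) for S100a8 and from 0.23 (PIIO-1 tumor 5 left out) to 0.76 (PBS tumor 1 left out) for S100a9, and without PBS tumor 4 they were 0.19 and 0.28. Mitochondrial genes took 3.12% and 2.22% of reads in the tumors with the most S100a8, PIIO-1 tumor 5 and PBS tumor 1, and 1.11% and 0.986% in those with the least, PBS tumors 4 and 5. Of the mitochondrially encoded genes, mt-Co1 was among the 3 genes most like S100a8 over the 10 tumors (Pearson r = 0.974, Spearman rho = 0.964, and r = 0.968 without the 2 tumors farthest from the S100a8 median), after S100a9 and Clec4d, a myeloid lectin gene. These are descriptions of the most alike of many genes. The part of RNA quality in this spread was not tested.

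Among the receptors and relatives of these alarmins, 7 of 8 measured genes had a difference above 0, 0 were called and the median was 0.15. Tlr4, the innate receptor that calprotectin can engage, differed by 0.23 (SE 0.097) and S100a11 by 0.13 (SE 0.057). Ager, which encodes the receptor RAGE, differed by -0.0016 (SE 0.15).

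Retnlg, Mmp8 and Mmp9 encode secreted or granule proteins. Retnlg encodes a resistin-like protein made by myeloid cells of marrow and blood and lies at chromosome 16, 48872621 to 48874496 (plus strand). It stood at 853, 396, 759, 2018 and 1202 in PBS tumors 1 to 5 and 1091, 1609, 1139.9, 2112 and 2017 in PIIO-1 tumors 1 to 5. PBS tumor 4, the lowest for S100a8, was the second highest for Retnlg, and all 5 PIIO-1 values lay above the PBS median of 853. The means were 1046 ± 614 with PBS against 1594 ± 476 with PIIO-1, the largest difference of the 10 members, 0.75 (SE 0.36), interval -0.042 to 1.55 (limma, adjusted p = 0.837). The Retnlg to S100a8 ratio ran from 0.225 (PBS tumor 2) to 2.44 (PBS tumor 4). The difference of Retnlg ran from 0.45 (PBS tumor 2 left out) to 1.04 (PBS tumor 4 left out).

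Mmp8, neutrophil collagenase, lies at chromosome 9, 7558456 to 7568485 (plus strand). It stood at 290.4, 309, 375, 204 and 518 in PBS tumors 1 to 5 and 395, 408, 453, 468 and 556 in PIIO-1 tumors 1 to 5. The PIIO-1 values formed a narrow band, with all 5 above the PBS median of 309 and PBS tumor 5 inside the treated range. Its means were 339 ± 117 with PBS against 456 ± 63.7 with PIIO-1, a difference of 0.48 (SE 0.20) with an interval from 0.035 to 0.93 (limma, adjusted p = 0.837). The unadjusted p of Mmp8 was 0.0368 by limma, 0.0639 by edgeR and 0.0409 by DESeq2. Its difference ran from 0.32 (PBS tumor 4 left out) to 0.65 (PBS tumor 5 left out). Mmp9, gelatinase B, which macrophages and other cells also make, lies at chromosome 2, 164940780 to 164955850 (plus strand). It stood at 6506, 6695, 6139, 6269.8 and 8014 in PBS tumors 1 to 5 and 7849, 7331, 7769.5, 6307 and 7255 in PIIO-1 tumors 1 to 5. It varied least of the members, 1.31-fold from PBS tumor 3 to PBS tumor 5, with means of 6725 ± 752 with PBS against 7302 ± 615 with PIIO-1 and a difference of 0.12 (SE 0.081), interval -0.055 to 0.30 (limma, adjusted p = 0.847), the upper end of which is 1.23-fold. The difference of Mmp9 ran from 0.090 (PBS tumor 3 left out) to 0.19 (PBS tumor 5 left out). PIIO-1 tumor 4, high for most members, was among the lowest 3 for Mmp9.

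Genes of the other granule proteins were read from a list chosen with earlier results of these data known. In it 8 of 9 measured genes had a difference above 0, 0 were called, and their median was 0.36. Chil3, a chitinase-like protein of neutrophils and monocytes, differed by 1.03 (SE 0.43) and Itgam, which encodes the CD11b integrin chain, by 0.35 (SE 0.15). Coverage differed widely within the list. Camp, the cathelicidin gene, was covered by at most 10 reads in any tumor, and 5 tumors had none; Ngp reached at most 15 reads. Per kilobase of exon, over all 10 tumors, Camp averaged 1.99, Ngp 3.25, Prtn3 12.6, Ltf 19.3, Lcn2 122, Chil3 569 and Lyz2 7878 normalized counts. Those of the members Mmp8 and Mmp9 were 164 and 1982. Camp, Ngp, Prtn3, Ltf, Lcn2 and Lyz2 were singled out here after their values were seen.

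The receptor genes Csf3r and Cxcr2 tell a neutrophil to mature and where to go. Csf3r, the G-CSF receptor gene at chromosome 4, 126024550 to 126044440 (plus strand), stood at 12299, 7890.2, 9271, 6462 and 8449 in PBS tumors 1 to 5 and 6683, 8407, 9984, 11285 and 14079 in PIIO-1 tumors 1 to 5. PBS tumor 1 was second only to PIIO-1 tumor 5, and PIIO-1 tumor 1 was second from the bottom. The means were 8874 ± 2171 with PBS against 10088 ± 2819 with PIIO-1, a difference of 0.17 (SE 0.20), interval -0.27 to 0.61 (limma, adjusted p = 0.905). It ran from 0.040 (PIIO-1 tumor 5 left out) to 0.31 (PIIO-1 tumor 1 left out), and was 0.066 without PBS tumor 4 and 0.30 without PBS tumor 1.

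Cxcr2, the chemokine receptor gene at chromosome 1, 74153989 to 74161246 (plus strand), stood at 3744, 2337, 2492, 1719.6 and 2079 in PBS tumors 1 to 5 and 2132, 2335, 2593, 3539 and 3759.8 in PIIO-1 tumors 1 to 5. The highest treated and the highest control value, 3759.8 and 3744, were nearly equal. The means were 2474 ± 767 with PBS against 2872 ± 733 with PIIO-1, a difference of 0.23 (SE 0.21), interval -0.23 to 0.68 (limma, adjusted p = 0.88). It ran from 0.11 (PBS tumor 4 left out) to 0.39 (PBS tumor 1 left out), and was 0.12 with PIIO-1 tumor 5 left out and 0.14 with PIIO-1 tumor 4 left out. The Csf3r to Cxcr2 ratio stayed between 3.13 and 4.06 in all 10 tumors (SD of the log2 ratio 0.13), the next steadiest pair after the alarmins.

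In the G-CSF and granulocyte maturation list, 12 of 14 genes had a difference above 0, 0 were called, and the median was 0.20. Csf3, which encodes G-CSF itself, stood at 249.8 ± 42.4 with PBS against 265 ± 43.3 with PIIO-1 (difference 0.088, SE 0.14). Socs3, the feedback brake on G-CSF signalling, differed by 0.30 (SE 0.15), and Csf2rb, the shared beta chain of the GM-CSF receptor, by 0.40 (SE 0.20). Cebpe, the C/EBP factor of late granulocyte maturation, stood at 131, 91.7, 112, 257 and 167 in PBS tumors 1 to 5 and 134, 192, 185, 246 and 244 in PIIO-1 tumors 1 to 5. It had its highest value in PBS tumor 4 and its lowest in PBS tumor 2, the tumors with the highest and lowest PBS Retnlg. Of the genes compared, Hic1, Adgrg6 and Adam23 were the most like Retnlg over the 10 tumors, and Cebpe came next (Pearson r = 0.963, Spearman rho = 0.976, and r = 0.958 without the 2 tumors farthest from the Retnlg median). These genes were picked as the most alike and after their values were seen.

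**Figure D2:**
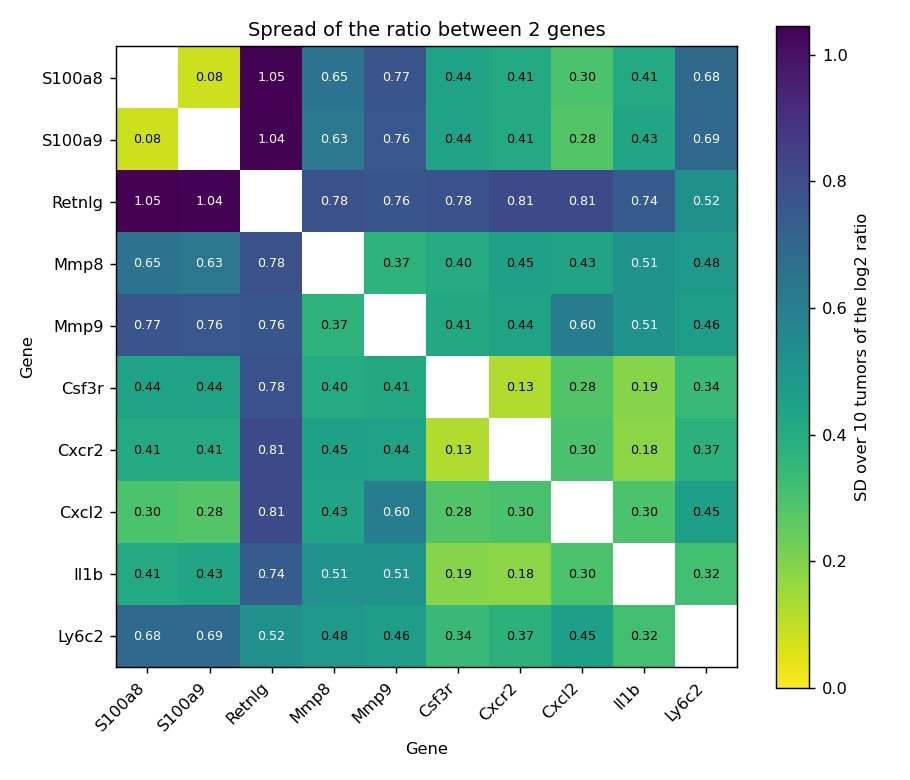
SD over 10 tumors of the log2 ratio between each pair of members (color and printed value; both axes list the 10 genes). A small SD means that the ratio held steady: S100a8 with S100a9 is lowest at 0.081, and S100a8 with Retnlg highest at 1.05.

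Cxcl2 encodes a ligand of CXCR2 and sits at chromosome 5, 90903871 to 90905938 (plus strand), beside the genes of related ligands, Cxcl1, Cxcl3, Cxcl5 and Ppbp. Its promoter and those of Cxcl1 and Cxcl3 are shown because all 3 hold the same letters of an NF-kB motif a short way before their start. The stretches are from RefSeq promoter windows of GRCm38.p6, plus strand, ending before the first annotated exon, with motif matches in capitals (the NF-kB letters GGGAATTTCC, and TATAAA where present).
Cxcl2, chr5:90903761-90903870: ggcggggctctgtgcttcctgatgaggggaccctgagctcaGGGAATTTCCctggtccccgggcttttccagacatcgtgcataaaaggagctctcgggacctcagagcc
Cxcl1, chr5:90891131-90891240: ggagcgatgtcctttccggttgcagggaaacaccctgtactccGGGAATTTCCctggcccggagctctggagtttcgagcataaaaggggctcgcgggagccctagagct
Cxcl3, chr5:90785991-90786100: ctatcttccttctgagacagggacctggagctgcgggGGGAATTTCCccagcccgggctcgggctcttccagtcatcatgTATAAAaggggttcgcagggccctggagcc
The match begins 97 bases before the RefSeq start of Cxcl2, 71 before that of Cxcl1 and 73 before that of Cxcl3. The printed stretches end at -29 (Cxcl2), -5 (Cxcl1) and -1 (Cxcl3) from those starts, since the first annotated exon can begin earlier. The NF-kB motif searched was GGGAATTTCC with any base allowed at the fifth letter, on both strands, and 0.411% of the 32851 RefSeq windows of 300 bases hold it. Of 9 members with a window (Mmp9 had none) Cxcl2 alone held it. Other motifs were searched the same way. The PU.1 core, GAGGAA, stood in the windows of 6 of the 9 members and in 28.3% of all windows. The C/EBP motif TTGCNNAA was found in 3 (S100a9, Retnlg and Mmp8) and in 10.8% of all windows. The letters TATAAA were found in 4 (S100a8, S100a9, Mmp8 and Il1b) and in 13.6% of all windows. They began at -30 from the start in S100a8 and at -31 in Il1b. In S100a9 they lay at 1 to 6, from the start onward, and in Mmp8 at -3 to 3 as the reverse complement. The AP-1 motif TGANTCA was found in 0 members and 7.81% of all windows. Matches in 1 member's window did not overlap each other. A match says only that the letters are there. The windows of Ppbp, Pf4 and Il1b held no NF-kB match, and Cxcl5 had no window.

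Cxcl2 stood at 21842, 13427, 16699, 9658 and 16238 in PBS tumors 1 to 5 and 14022, 14740.2, 20179, 26925 and 42217 in PIIO-1 tumors 1 to 5. PIIO-1 tumors 4 and 5 lay above every PBS tumor, and the other 3 treated tumors lay within the PBS range. The means were 15573 ± 4489 with PBS against 23617 ± 11614 with PIIO-1, a difference of 0.53 (SE 0.30), interval -0.12 to 1.17 (limma, adjusted p = 0.837), running from 0.28 (PIIO-1 tumor 5 left out) to 0.68 (PIIO-1 tumor 1 left out). The neighbours Cxcl1 and Cxcl3 stood at 521 ± 96.5 with PBS against 800.1 ± 327 with PIIO-1 and 5959 ± 1306 with PBS against 8823 ± 3282 with PIIO-1, respectively, with differences of 0.56 (SE 0.22) and 0.53 (SE 0.24). Per kilobase of exon, Cxcl2 averaged 9475, Cxcl3 2113, Cxcl1 352 and Cxcl5 8.29 normalized counts over all tumors. In the list of CXCR2 ligands and related chemokine genes, which leaves out Cxcl2, all 6 genes kept by the filter had a difference above 0, 0 were called, and the median was 0.54. Ppbp, whose product platelets release, had the smallest p, with a difference of 1.31 (SE 0.40), and no overlap between the groups. Its value in PIIO-1 tumor 5, 1121, was far above the 319.7 to 423 of the other treated tumors.

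Il1b, which encodes IL-1 beta, was the most abundant member: per kilobase of exon it averaged 16580.5 normalized counts, ahead of Cxcl2 (9475) and S100a9 (9442). S100a8 (3120.1), Csf3r (2627), Retnlg (2226) and Mmp9 (1982) followed, and Cxcr2 (877), Ly6c2 (636) and Mmp8 (164) were lowest. Neighbours in this order overlapped between tumors, except that Mmp8 (at most 229 per kilobase) stayed below Ly6c2 (at least 411), and Cxcr2 (at most 1234) below Mmp9 (at least 1735). Il1b lies at chromosome 2, 129364570 to 129371139 (minus strand) and took 0.0717% to 0.172% of all reads in genes. The antisense gene Il1bos overlaps it, and since the strand setting is not given, their reads cannot be told apart; Il1bos was among the 3 genes most like Il1b over the 10 tumors (Pearson r = 0.978, Spearman rho = 0.952, and r = 0.939 without the 2 tumors farthest from the Il1b median).

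Il1b stood at 42828, 25129.8, 28085, 23101 and 24212 in PBS tumors 1 to 5 and 21619, 29858, 24999, 41327 and 55029 in PIIO-1 tumors 1 to 5. PBS tumor 1 stood apart from the other 4 controls and was higher than 4 of the 5 treated tumors. The means were 28671 ± 8127 with PBS against 34567 ± 13654 with PIIO-1, a difference of 0.22 (SE 0.25), interval -0.32 to 0.77 (limma, adjusted p = 0.899). The difference ran from 0.035 (PIIO-1 tumor 5 left out) to 0.38 (PBS tumor 1 left out), and was 0.37 with PIIO-1 tumor 1 left out and 0.14 with PIIO-1 tumor 4 left out. Its log2 ratio to Cxcr2 had an SD of 0.18 and that to Csf3r 0.19, the next 2 steadiest pairs. In the rest of the IL-1 list, 9 of 14 genes had a difference above 0, 0 were called, and the median was 0.027. Nlrp3, the inflammasome sensor, differed by 0.39 (SE 0.31), Il1rap, the receptor's accessory chain, by 0.12 (SE 0.084), and the processing enzyme gene Casp1 by -0.064 (SE 0.14). Il1rn, which encodes the natural antagonist of the receptor, stood at 8525 ± 2269 with PBS against 10398 ± 3421 with PIIO-1, a difference of 0.27 (SE 0.25). Casp1 and Il1rn were named after their values were seen.

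Ly6c2 encodes part of the Ly6C antigen by which inflammatory monocytes are sorted, though endothelial and some T cells also carry Ly6C. It lies at chromosome 15, 75108158 to 75111970 (minus strand). It stood at 1823, 1167, 1231, 1707 and 1806 in PBS tumors 1 to 5 and 1126, 1858, 1579, 2684 and 2441 in PIIO-1 tumors 1 to 5. PIIO-1 tumors 4, 5 and 2 lay above every PBS tumor, while PIIO-1 tumor 1 was the lowest of all 10. The means were 1547 ± 321 with PBS against 1938 ± 633 with PIIO-1, a difference of 0.28 (SE 0.22), interval -0.20 to 0.77 (limma, adjusted p = 0.865), running from 0.15 (PIIO-1 tumor 4 left out) to 0.46 (PIIO-1 tumor 1 left out), and 0.18 without PIIO-1 tumor 5. The near-identical copy Ly6c1 on the same chromosome can share reads with Ly6c2, which makes the value of each uncertain. Ly6c1 stood at 10729 ± 749 with PBS against 9189 ± 1356 with PIIO-1, a difference of -0.24 (SE 0.10), opposite in sign to that of Ly6c2. The sum of both ran from 11543 to 12974 normalized counts in PBS and from 9253 to 12773 in PIIO-1 tumors, with the lowest in PIIO-1 tumor 5.

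In the inflammatory monocyte list, 16 of 19 genes had a difference above 0, 0 were called, and the median was 0.30. Chil3 stands in this list as well as in the granule list. F13a1, a coagulation factor gene of monocytes and macrophages, stood at 2632 ± 679 with PBS against 3598 ± 579.9 with PIIO-1, a difference of 0.47 (SE 0.16). Gsr, glutathione reductase, differed by 0.19 (SE 0.076). Ccr2, the receptor by which these cells leave the marrow, stood at 3881, 3171, 3195, 3447 and 3954 in PBS tumors 1 to 5 and 2962, 4657, 3166, 4962 and 5610.3 in PIIO-1 tumors 1 to 5, with PIIO-1 tumors 5, 4 and 2 above every control. In the non-classical monocyte list 6 of 8 genes had a difference above 0 and 0 were called (median 0.20). The non-classical genes with the smallest p were Ace (0.50, SE 0.25) and Nr4a1 (0.34, SE 0.20).

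Other neutrophil genes came from a list chosen with earlier results of these data known. The genes of this and the other lists were measured in the same tumors, so their signs are not separate observations. Of 27 genes of neutrophil surface and cytoplasm 25 were kept by the filter; of these 23 had a difference above 0, 0 were called, 1 was higher at an unadjusted limma p under 0.05 (against 2.86% of all genes), and the median was 0.27. Pglyrp1, a peptidoglycan-binding protein of granules, stood at 328 ± 58.8 with PBS against 466 ± 128 with PIIO-1 (difference 0.48, SE 0.20), and G0s2 at 2432 ± 292 with PBS against 3502 ± 1459 with PIIO-1 (difference 0.44, SE 0.23). The same count was 3 of 9 for granule genes, 4 of 6 for CXCR2 ligands and related genes, 3 of 8 for S100 receptors and relatives, 4 of 19 for inflammatory monocyte genes and 0 for the G-CSF, IL-1 and non-classical monocyte lists. Of the markers of other cells it was 5 of 6 for red blood cell genes, 2 of 5 for platelet, 1 of 5 for mast cell and 1 of 2 for keratinocyte genes. At the same threshold 1 of 12 macrophage genes (Gpnmb) and 1 of 5 endothelial genes (Ly6c1) were lower, against 2.77% of all genes. Some genes stand in more than 1 of these lists. The 2 that were not kept, Stfa2 and Stfa3, averaged under 10 normalized counts. Ly6g, which encodes the antigen used to define mouse neutrophils, was found in every tumor but at a low level: 40.1, 35.1, 38.4, 37.5 and 38.8 in PBS tumors 1 to 5 and 30.8, 43.1, 41.2, 70.9 and 65.3 in PIIO-1 tumors 1 to 5. PIIO-1 tumors 4 and 5 were the highest for Ly6g, and the 8 others lay between 30.8 and 43.1. Per kilobase of exon Ly6g averaged 46.8 normalized counts, far below Csf3r and Cxcr2. Il1b, Cxcl2 and Mmp9 are also made by macrophages and other cells, and which cells gave the reads was not tested.

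**Figure D3:**
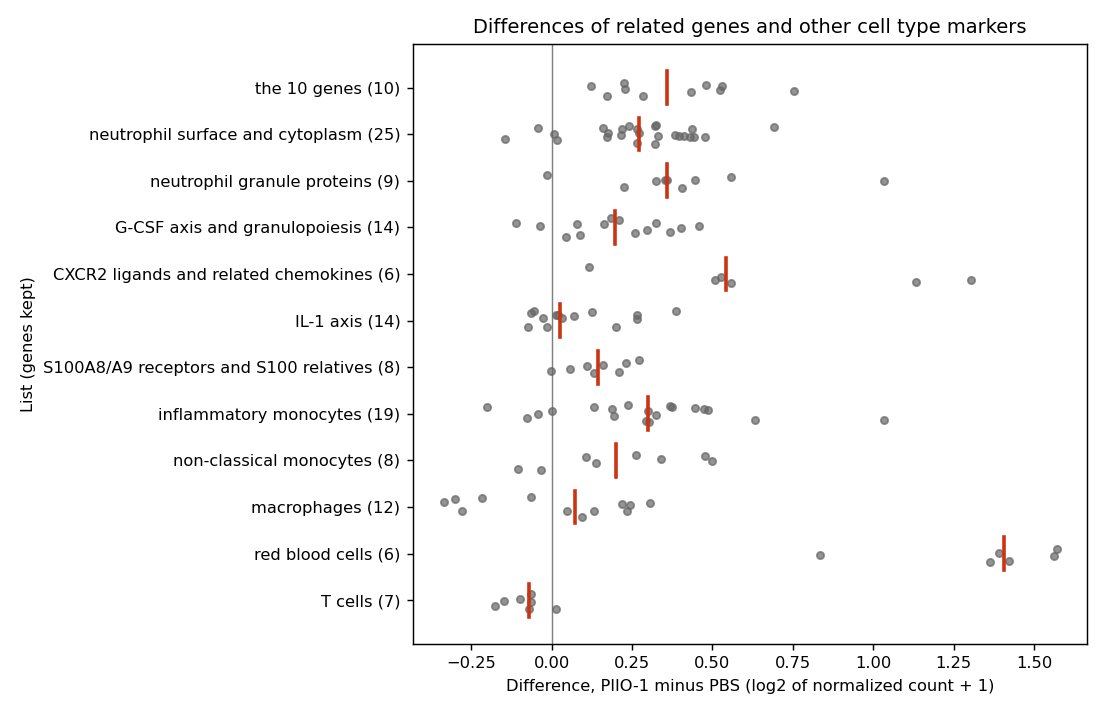
Differences between PIIO-1 and PBS tumors (horizontal axis, log2 of normalized count + 1) for each gene kept (grey points, jittered vertically) of 12 lists, whose sizes are in brackets; the red line is the list's median. The median lies at 0.36 for the 10 genes, 0.027 for the IL-1 list and 1.41 for red blood cell genes; no gene of these lists was called.

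The order of the tumors was the same for S100a8 and S100a9 but not for all members. PIIO-1 tumor 5 was the highest of 10 for 7 members and PIIO-1 tumor 4 for Retnlg and Ly6c2, while PBS tumor 5 was the highest for Mmp9. PBS tumor 4, the smallest library, was the lowest for 6 members but the second highest for Retnlg. PBS tumor 1 was among the top 2 for 5 members (S100a8, S100a9, Csf3r, Cxcr2 and Il1b) but ranked 8 for Retnlg, 9 for Mmp8 and 7 for Mmp9, counted from the highest. PIIO-1 tumor 1 ranked 2 for Mmp9 and 10 for Il1b and Ly6c2. Among PBS tumors the highest value of a member was 1.31-fold (Mmp9) to 5.10-fold (Retnlg) the lowest. For every member this exceeded the fold between the group means. A ratio of extremes and a ratio of means are unlike measures, and the share over all genes was not counted. For S100a8, S100a9 and Retnlg the SD over 10 tumors (0.74, 0.74 and 0.76 on the log2 scale) exceeded that of at least 96.5% of all genes tested, and Mmp9 (0.15) that of 43.7%.

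**Figure D4:**
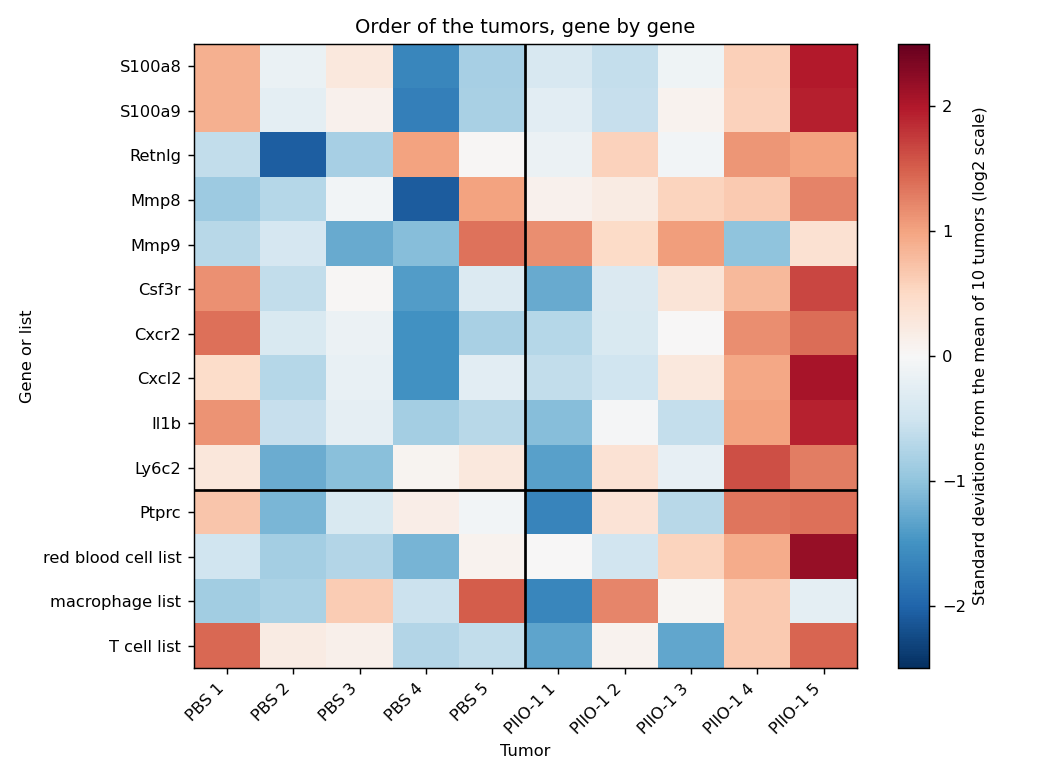
Level of each gene or marker list (rows) in each tumor (columns) in SDs from its mean over 10 tumors, log2 scale; red is high, blue is low, and the lines part the groups and the 10 genes from the markers below. Most member rows are reddest in PIIO-1 tumor 5 and bluest in PBS tumor 4, while Retnlg is bluest in PBS tumor 2.

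Markers of other cells were read beside the members. Ptprc, which encodes the pan-leukocyte protein CD45, stood at 14609, 9056, 11047, 12735 and 11985 in PBS tumors 1 to 5 and 7928, 13292, 10188, 17239 and 17429.7 in PIIO-1 tumors 1 to 5, highest in PIIO-1 tumors 5 and 4. With Ptprc as a covariate all 10 members kept a difference above 0, with a median of 0.25. All 6 red blood cell genes had a difference above 0 (median 1.41, 0 called), and their summed level was 5493 to 12863 with PBS and 8378 to 58727 with PIIO-1, with PIIO-1 tumor 5 the highest and PBS tumor 4 the lowest. With the red blood cell level as a covariate the median of the members was -0.21: only Retnlg (0.50), Mmp8 (0.084) and Mmp9 (0.099) stayed above 0, and 0 members were called. Since red blood cell genes had higher means in the treated tumors, treatment and blood content cannot be fully told apart. Macrophage genes had 7 of 12 differences above 0 (median 0.072, 0 called) and a summed level of 51279 to 76639.7 with PBS and 42244 to 71332 with PIIO-1. Adgre1, the F4/80 gene, differed by 0.24 (SE 0.18), C1qa by -0.34 (SE 0.21) and Gpnmb by -0.30 (SE 0.11). Keratinocytes can also make S100a8 and S100a9. The table held 6 keratinocyte genes, of which 2 were kept, and none was at 0 in every tumor. Krt14 differed by 0.41 (SE 0.16) and Krt5 by -0.21 (SE 1.06). The summed level of all 6 keratinocyte genes was 607 to 1216 with PBS and 838 to 1372 with PIIO-1. Krt14, with means of 823 with PBS and 1079 with PIIO-1, makes up most of that sum. Which cells gave the Krt14 reads was not tested. Krt10, Krt1, Lor and Ivl, which mark the outer layers of skin, averaged at most 11.3 in either group. The part of these cell types in the members' values was not otherwise tested.

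Further lists of other cells gave 0 calls. Differences were above 0 for 5 of 5 mast cell genes (summed level 413 to 625 with PBS and 486 to 1631 with PIIO-1), 6 of 6 eosinophil and basophil genes (1173 to 3233 with PBS and 1566 to 3642 with PIIO-1), 6 of 7 dendritic cell genes (1163 to 2484 with PBS and 1628 to 3626 with PIIO-1) and 6 of 7 B cell genes (985 to 1354 with PBS and 1142 to 2097 with PIIO-1). They were above 0 for 1 of 7 T cell genes (summed level 1887 to 4200.2 with PBS and 1512 to 4273 with PIIO-1), 0 of 5 NK cell genes (5830.4 to 9359 with PBS and 4049.6 to 10304 with PIIO-1) and 5 of 5 platelet genes (1763 to 3329 with PBS and 2761 to 5190.1 with PIIO-1). They were also above 0 for 4 of 5 endothelial genes (14114 to 15694 with PBS and 10996 to 15083 with PIIO-1) and 2 of 6 fibroblast genes (1939.5 to 5474 with PBS and 1641 to 7914 with PIIO-1). The endothelial gene below 0 was Ly6c1 (-0.24). With means of 10729 with PBS and 9189 with PIIO-1, Ly6c1 makes up most of the endothelial sum. Examples were Ms4a2 of mast cells (1.28, SE 0.53), Cd79a of B cells (0.79, SE 0.37), Itga2b of platelets (0.42, SE 0.12) and Cd3e of T cells (-0.18, SE 0.29). PIIO-1 tumor 5 had the highest summed level of mast cell, dendritic cell, B cell, T cell and platelet genes of the 10 tumors.

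**Figure D5:**
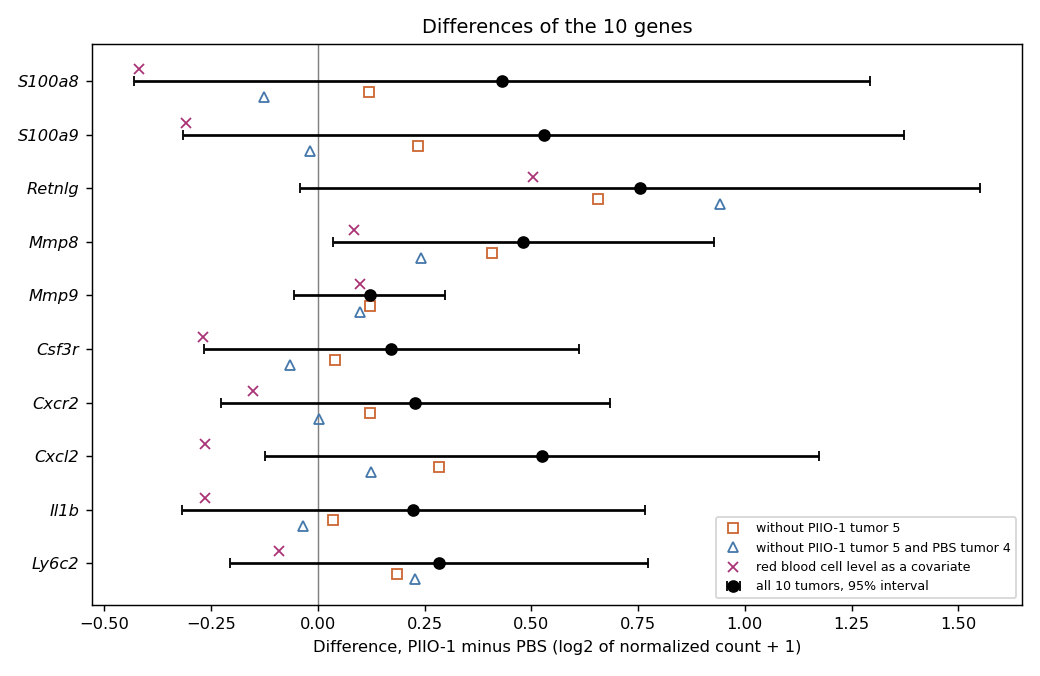
Difference of each gene between 5 PIIO-1 and 5 PBS tumors (horizontal axis, log2 of normalized count + 1) with its 95% interval from limma (black), beside the values with 1 or 2 tumors left out or with the red blood cell level in the fit. The interval of Mmp8 alone lies above 0, and S100a8 moves from 0.43 to -0.13 once PIIO-1 tumor 5 and PBS tumor 4 are both left out. Those tumors have the highest and the lowest mean level of the members, which by itself makes the differences smaller.

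The genes whose pattern over the 10 tumors was most like the mean standardized level of the 10 members, among 11805 named genes averaging 50 normalized counts or more, were Nfkbia, Egr1, Mpzl3, Dusp1, Clec4e and Cyth1 (Pearson r from 0.969 to 0.978, Spearman rho from 0.927 to 0.988). They were taken as the most alike of all those genes, so r is a description. Leaving out PIIO-1 tumor 5 and PBS tumor 4, which lay farthest from the median of the members' mean level, r was 0.914 to 0.953, and with each group centred on its own mean it was 0.961 to 0.981. Nfkbia encodes the NF-kB inhibitor I-kappa-B alpha, Egr1 an immediate early transcription factor, Dusp1 a phosphatase that dampens MAP kinases, and Clec4e the myeloid receptor Mincle. Nfkbia stood at 12089, 9447, 10538, 8987 and 11808 in PBS tumors 1 to 5 and 9951, 10807, 12573, 15128 and 19388 in PIIO-1 tumors 1 to 5, highest in PIIO-1 tumors 5 and 4 and lowest in PBS tumors 4 and 2 (difference 0.33, SE 0.16). Its promoter window also holds the NF-kB motif, as the reverse complement, between 29 and 20 bases before the start. Of all RefSeq windows 0.411% hold that motif. Among these most alike genes only Nfkbia was searched for it, after its values were seen. A role of NF-kB in the shared pattern was not tested.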

How the data were processed

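RNA of 10 whole MB-49 tumors was sequenced. Per the labels' protocols, cell suspensions went through RNeasy columns, and an NEBNext Ultra kit gave the libraries. Per the submitters' processing notes, HISAT2, featureCounts and DESeq2 were used with GRCm38 (version, annotation, strand: not given in the sources used here). Values were deposited as a signal, namely normalized counts: gene counts that the authors divided by 1 size factor per tumor. In each column 100% of values were whole multiples of 1 step within 0.001 read, so whole reads were recovered, and 3 reads are worth 2.45 to 4.68 normalized counts. All pairs of libraries differed beyond counting noise (chi-square per gene at least 9.80).

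Groups came from the treatment label and tumor numbers from the titles. The test was limma 3.58.1 (R 4.3.3) with an intensity trend on log2(value + 1), over 16767 genes averaging at least 10, two-sided, Benjamini-Hochberg adjustment over all of them, threshold 0.05. Low genes' differences are understated on this scale. edgeR 4.0.16 and DESeq2 1.42.0 ran on recovered reads of the same genes. On simulated data for this comparison (16767 genes, 200 changed), limma's recovery was 70% at 1.5-fold, 100% at 2-fold and 3-fold and 94% at 4-fold, with 2.67% of calls false. Counts were drawn separately for each gene, so shifts that many genes share in a tumor were not simulated. The changed genes were picked at random among well-covered genes. The SE was 0.39 for S100a8 and 0.36 for Retnlg, against a median of 0.10 over all genes tested. The recovered shares therefore do not describe such members. Positions, exon lengths (union of all transcripts) and overlaps come from GENCODE for GRCm38, in which 23960 of 24202 symbols (99.0%) matched 1 gene; promoters come from RefSeq, GRCm38.p6.

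The members, lists, tests and alternatives were chosen with earlier results of these data known. Genes named are the members, the 2 genes of each list with the smallest p, the 6 genes most like the members and fixed markers, and others are said to be chosen after their values were seen. Also named that way are Ager, Csf3, Cxcl3, Cxcl5, Cebpe, Ccr2, Stfa2, Stfa3, Chil3 as neighbours or pathway genes, and the skin markers. Elane and Mpo (granule list), Cpa3 (mast cells) and Flg (keratinocytes) were listed but not found under those symbols among the genes of the table, so they were not analysed. Alternatives are given in the closing section.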

Additional observations from a re-analysis of the deposited data

Results flagged for a closer look

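Among the 59 genes named by the rule, each looked at in both groups of 5 tumors (118 groups), 6 values stood apart, where chance flags about 1 group in 20. The gap to the nearest tumor, divided by the group's range, was above Dixon's 95% critical value for 5 values in each case. Of the 10 members this concerned Il1b in PBS tumor 1, at 42828 normalized counts, with the nearest other tumor of its group at 28085. Cxcl1 in PIIO-1 tumor 5 stood at 1363 normalized counts, with the nearest other tumor of its group at 775. Ppbp in PIIO-1 tumor 5 stood at 1121 normalized counts, with the nearest other tumor of its group at 423, and Ighd, a B cell gene, at 105 normalized counts, with the nearest other tumor of its group at 42.3. Ly6c1 in PIIO-1 tumor 5 was low, at 6812 normalized counts, with the nearest other tumor of its group at 9348. Hbb-bs, a beta-globin gene, in PBS tumor 5 stood at 7886 normalized counts, with the nearest other tumor of its group at 4087. Thus 4 of the 6 values came from PIIO-1 tumor 5.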

How the results depend on the processing

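Limma called 0 genes under every scaling, filter, pseudocount, covariate and tumor left out that was run, and edgeR 0, while DESeq2 on recovered reads called 3 genes; 0 members were called in any of these fits. The median difference of the members was 0.36. With 1 tumor left out it lay between 0.15 (PIIO-1 tumor 5 out) and 0.50 (PIIO-1 tumor 1 out). It was 0.26 with array weights and -0.21 with the red blood cell level as a covariate. TMM and upper-quartile scaling left all 10 members above 0. With the replicate number as a block, 0 genes and 0 members were called and the smallest member p was 0.0158 (limma). Same-numbered tumors of the 2 groups did not deviate together (correlations -0.21 to 0.095, 1 of 5 PBS tumors most like its own number). Whether equal numbers also mark a shared batch cannot be told from these correlations. Of 240 values of single members under alternatives 11 changed sign, none with a call. PIIO-1 tumor 5 and PBS tumor 4 had the highest and the lowest mean level of the members. With both out, the differences that changed sign were Csf3r -0.066, Il1b -0.034, Pdgfrb 0.018, S100a8 -0.13 and S100a9 -0.018. With the red blood cell covariate they were Cd79a -0.11, Clec4e -0.35, Csf2rb -0.095, Csf3r -0.27, Cxcl1 -0.030, Cxcl2 -0.26, Cxcr2 -0.15, Cyth1 -0.13, Dusp1 -0.11, Egr1 -0.22, Fcer1a -0.27, G0s2 -0.18, Ighd -0.23, Il1b -0.26, Il1rap -0.037, Ly6c2 -0.090, Ly6g -0.043, Mpzl3 -0.14, Nfkbia -0.13, Nlrp3 -0.42, Nr4a1 -0.042, Pdgfrb 0.16, Ptprc -0.22, S100a8 -0.42, S100a9 -0.31 and Socs3 -0.067. With 1 tumor left out, signs turned for Cd3e (-0.34 to 0.017), Gzma (-0.27 to 0.079), Krt5 (-0.97 to 0.74), Ptprc (-0.0094 to 0.27) and Trac (-0.35 to 0.037). The cause was not tested. All members were covered by at least 131 reads in every tumor, so the spread between 5 tumors, not depth, sets their errors.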
